A study of Mus musculus with 12 samples.

Results

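The genes described here encode the subunits of the mouse proteasome, except for 4 that are named in the next paragraph. They were taken as every protein-coding gene whose symbol begins with Psma, Psmb, Psmc or Psmd followed by a number and which had at least 10 unstranded counts in at least 3 libraries. Of 40 protein-coding genes with such a symbol, 39 qualified, out of 11982 protein-coding genes that met the same count minimum. Psmb11, a subunit of the thymus, reached at most 8 counts in any library and was left out, as were 4 pseudogenes. RNA was sequenced from primary mouse hepatocytes, taken from liver and kept in culture, in 4 groups of 3 libraries. Control cells received neither pretreatment nor FAC, an agent that the labels do not spell out. FAC cells received FAC alone. Lip-1+FAC cells were pretreated on day 2 of culture with liproxstatin-1, a scavenger of lipid radicals, and then received FAC, and MT+FAC cells were pretreated on that day with Mito-TEMPO, a scavenger directed to mitochondria, and then received FAC. No group received a scavenger without FAC, so an effect of a scavenger can be read only among cells that had FAC. Strain, age, sex, doses and durations were not given, nor was it stated whether the replicates came from separate animals or cultures, so the p-values measure only the spread between these libraries. Gene-assigned counts were between 22991598 and 31683376 per library except for FAC 2, labelled as a combined library, which had 52529278. All 8 hepatocyte markers examined, Alb and Apoa1 among them, were detected, and they summed to 19227 to 19826 CPM in control (CPM, the normalized count: counts scaled to a common library size).

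The proteasome is the protease that degrades most ubiquitin-tagged protein in the cytosol and nucleus. Its barrel, the 20S core, stacks rings of alpha subunits, which gate the entry, on rings of beta subunits, which include the catalytic ones. The 19S cap binds ubiquitin chains through its base and lid, removes the chains, and unfolds the substrate with a ring of ATPases. In the immunoproteasome, Psmb9, Psmb10 and Psmb8 replace the constitutive catalytic subunits Psmb6, Psmb7 and Psmb5 respectively, which shifts the peptides produced toward those presented on MHC class I. The immunoproteasome genes are known targets of interferon signalling, whereas constitutive subunit genes are known to be induced together by the transcription factor NRF1 (Nfe2l1) when proteasome activity falls short. The 39 genes comprised 8 alpha subunits, 4 non-catalytic and 3 catalytic constitutive beta subunits, the 3 immunoproteasome subunits, 6 ATPases, 3 further base subunits and 8 lid subunits. The remaining 4 are not parts of the mature particle: Psmd5, Psmd9 and Psmd10 are chaperones that help to assemble the 19S base, and Psmc3ip is a meiotic recombination factor that shares only the symbol.

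In control hepatocytes, transcript levels of the constitutive subunits lay far above those of the immunoproteasome. Levels between genes were compared in TPM, a length-normalized level that divides counts by the length of all annotated exons of a gene. Leaving out Psma8, a testis form of an alpha subunit with at most 36 counts, the 31 constitutive subunits had a median of 196 TPM and ran from 48.1 TPM for Psmb7 to about 1150 TPM for the lid subunit Psmd8. Among the immunoproteasome genes, Psmb10 was at 52.7 ± 6.63 TPM (SD, n = 3), Psmb8 at 18.5 ± 3.60 TPM and Psmb9 at 4.66 ± 0.35 TPM. Psmb10 therefore overlapped in range with its constitutive counterpart Psmb7 at 48.1 ± 3.61 TPM, while Psmb9 lay far below Psmb6, at 0.941 to 1.08% of its level. The annotated exons of Psmb9 add up to 3660 bases and those of Psmb6 to 1872 bases, and a union of exons that is longer than the transcripts present lowers a TPM. Those of Psmb10 add up to 1705 bases against 3421 for Psmb7, and those of Psmb8 to 3381 against 899 for Psmb5. In control CPM, which are not divided by length, Psmb10 was 48.0 to 58.4% of Psmb7 and Psmb8 12.9 to 16.6% of Psmb5. The ratios within pairs thus depend on the annotated lengths. In the order of levels, 23 neighbouring pairs overlapped in their control ranges, so that the order is fine only in its large steps.

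**Figure D1:**
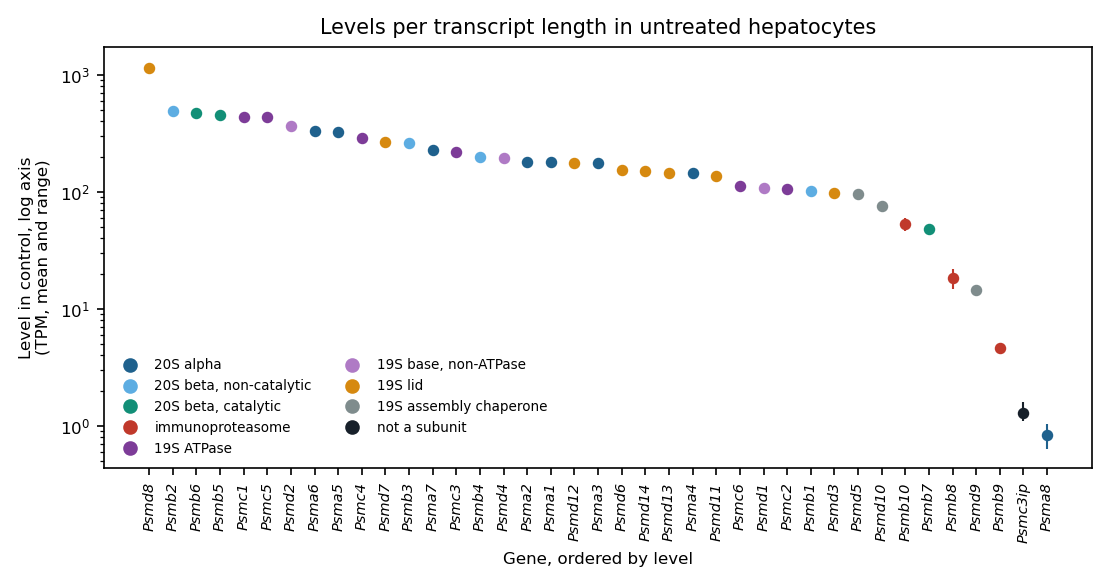
Level of each of the 39 genes in control hepatocytes (TPM, log axis), ordered from highest to lowest and coloured by class; points are means of 3 libraries and bars run from the lowest to the highest library. Psmd8 stands at about 1150 TPM, and 2 of the 3 immunoproteasome genes, Psmb8 and Psmb9, lie below every constitutive subunit except Psma8.

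Sequences in front of the catalytic genes Psmb5 and Psmb6, the immunoproteasome genes and 3 genes with large called changes in other classes are shown. They allow the genes to be compared by their upstream letters. For Psmb7, also constitutive and catalytic, no sequence is printed. RefSeq promoter sequences (GRCm38.p6) were found for 32 of the 39 genes. Up to 120 bases nearest the start of transcription that lie in no annotated exon are printed 5′ to 3′ on the gene's strand, with matches to searched motifs in capitals. For Psmb8 and Psmb9, whose upstream windows run into annotated exons, only 30 bases around a match are printed. The catalytic genes Psmb5 (chr14:54618023-54618142, minus strand) and Psmb6 (chr11:70525237-70525356, plus strand) each held the core of the antioxidant response element, TGACNNNGC. The immunoproteasome sequences are those of Psmb8 (chr17:34198088-34198117, plus strand), with a gamma-activated site, TTCNNNGAA, of Psmb9 (chr17:34187368-34187397, minus strand), with a GC box, GGGCGG, and of Psmb10 (chr8:105938445-105938564, minus strand), with no match. The alpha subunit Psma1 (chr7:114276119-114276238, minus strand) held GC boxes and a CCAAT box, CCAAT. The lid subunit Psmd11 (chr11:80428495-80428614, plus strand) and the chaperone Psmd5 (chr2:34870963-34871082, minus strand) held GC boxes.
Psmb5: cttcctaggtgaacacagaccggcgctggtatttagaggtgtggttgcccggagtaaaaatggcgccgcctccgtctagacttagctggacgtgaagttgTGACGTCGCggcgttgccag
Psmb6: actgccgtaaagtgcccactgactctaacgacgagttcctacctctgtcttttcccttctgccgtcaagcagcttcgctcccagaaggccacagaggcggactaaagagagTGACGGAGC
Psmb8: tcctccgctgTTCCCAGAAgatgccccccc
Psmb9: tgcgcgatgatgGGGCGGggcctcagtctg
Psmb10: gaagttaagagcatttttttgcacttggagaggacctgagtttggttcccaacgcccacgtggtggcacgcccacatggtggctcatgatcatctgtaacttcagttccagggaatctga
Psma1: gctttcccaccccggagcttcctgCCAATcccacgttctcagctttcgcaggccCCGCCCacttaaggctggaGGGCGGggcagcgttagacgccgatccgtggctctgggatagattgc
Psmd11: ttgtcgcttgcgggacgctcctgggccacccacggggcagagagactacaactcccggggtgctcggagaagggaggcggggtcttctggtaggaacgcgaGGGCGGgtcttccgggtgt
Psmd5: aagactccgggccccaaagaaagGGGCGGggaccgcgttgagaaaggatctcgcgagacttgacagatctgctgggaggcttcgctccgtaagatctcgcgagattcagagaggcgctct

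Over the 250 bases upstream of the start, on both strands, the antioxidant response element core was found in 5 of the 32 member promoters (15.6%; Psmb5, Psmb6, Psmc6, Psmd12 and Psmd9), against 10.2% of 32841 promoters. An interferon-stimulated response element, written as GAAA and GAAA with 2 bases between, was found in 3 (9.4%; Psmb3, Psmd4 and Psmd9), against 3.0%, and in none of the immunoproteasome genes. The gamma-activated site was found in Psmb8 alone (3.1%), against 7.0%. The GC box was in 18 (56.2%), against 32.7%, and the CCAAT box in 13 (40.6%), against 33.9%. These matches describe letters in a window and are not shown to be bound. Psmb9 lies head to head with Tap1, a subunit of the transporter that carries proteasome-made peptides into the endoplasmic reticulum, with 225 bases between their RefSeq starts.

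The first comparison asked what FAC alone did to these genes. FAC cells had lower levels of all 3 immunoproteasome genes, while the constitutive catalytic subunits did not pass the test and stayed within 0.06 of control on the log2 scale. Of the 39 genes, 8 were lower and 2 higher in FAC than in control at an adjusted p under 0.05 (edgeR's quasi-likelihood test, Benjamini-Hochberg adjusted over 13535 genes). This was 25.6% of the members, where 36.6% of all genes tested were called (19.1% lower, 17.5% higher), and the members' median absolute log2 change of 0.10 compares with 0.27 over all genes. The median signed change was -0.08, against -0.006 over all genes; it was -0.019 without FAC 2, -0.035 without control 3, -0.13 without FAC 3 and -0.009 with GC and length offsets. In bulk RNA, fewer cells of a type and less RNA per cell cannot be told apart.

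Psmb9 (chr17:34181987-34187764, GRCm38) read 6.45, 5.36 and 5.998 CPM in the control libraries and 3.03, 2.76 and 2.99 CPM in the FAC libraries. It read 4.55, 5.22 and 4.14 CPM with Lip-1+FAC and 6.001, 4.86 and 6.05 CPM with MT+FAC. All 3 FAC libraries lay below every other library, and MT+FAC overlapped with control. The FAC level was 50.8% lower than control by the fitted values (log2 fold change -1.02, SE 0.161, edgeR adjusted p = 7.82e-05). The Psmb9 values rest on 74 to 192 counts per library.

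Psmb10 (chr8:105935735-105938444) read 27.6, 29.97 and 36.2 CPM in control and 18.998, 22.7 and 17.8 CPM in FAC. The pretreated cells had 28.8, 25.1 and 27.3 CPM with liproxstatin-1 and 27.1, 28.7 and 27.5 CPM with Mito-TEMPO. FAC again did not overlap with any other group. Psmb10 fell by 0.65 on the log2 scale with FAC (SE 0.109, edgeR adjusted p = 0.000141).

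Psmb8 (chr17:34197721-34201454) read 22.4, 16.8 and 26.4 CPM in control and 17.03, 15.3 and 15.5 CPM in FAC. Lip-1+FAC cells had 18.8, 18.8 and 14.2 CPM, and MT+FAC cells 16.8, 15.4 and 14.5 CPM. Here control 2 lay at the level of FAC 1, so the groups overlapped, and both pretreated groups overlapped with FAC. The fall with FAC was 0.46 on the log2 scale (SE 0.144, edgeR adjusted p = 0.0185). The call was lost without control 1 (-0.44), control 3 (-0.30), FAC 2 (-0.43) or FAC 3 (-0.44).

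**Figure D2:**
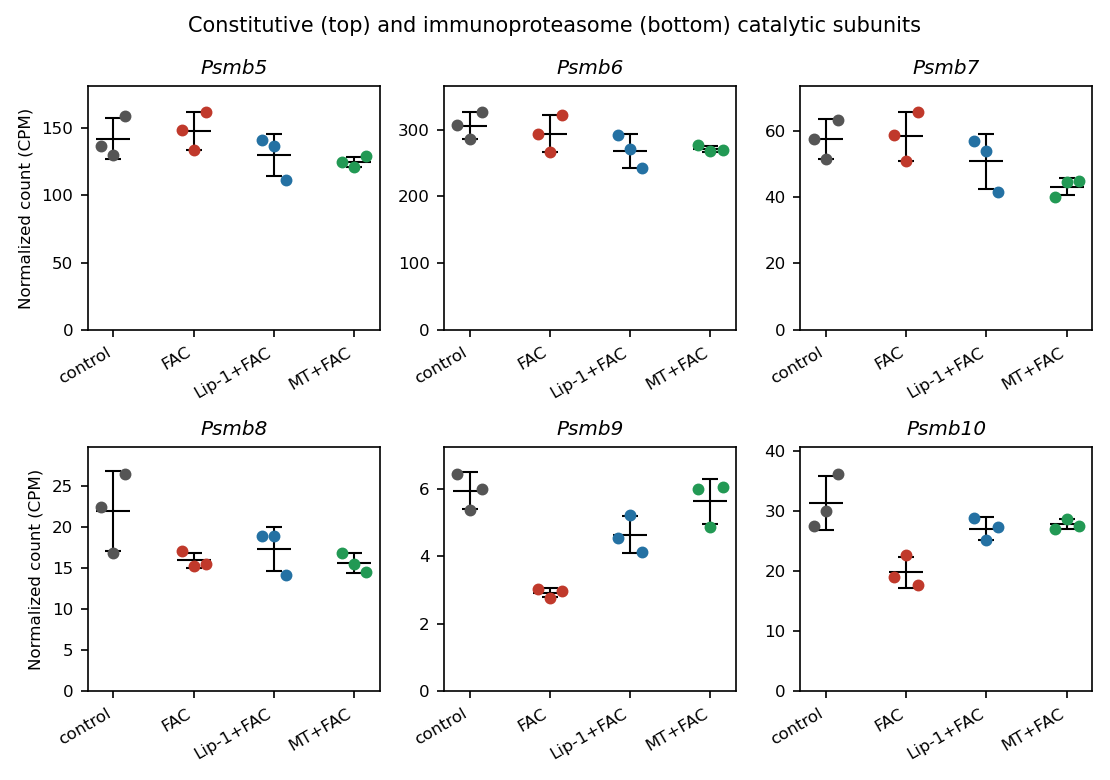
Normalized counts (CPM, linear axes from 0) of the constitutive catalytic genes Psmb5, Psmb6 and Psmb7 (top) and of the immunoproteasome genes Psmb8, Psmb9 and Psmb10 that replace them (bottom); dots are the 3 libraries of a group, black bars the mean and SD. The FAC libraries of Psmb9, at 2.76 to 3.03 CPM, lie below all others, while Psmb5, Psmb6 and Psmb7 overlap between control and FAC.

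The constitutive counterparts differed less between control and FAC than among replicates. Psmb5 read 137, 130 and 159 CPM in control and 148.4, 133 and 162 CPM in FAC. Psmb6 read 306, 286 and 326 CPM in control and 294, 266 and 322 CPM in FAC. Psmb7 read 57.5, 51.3 and 63.3 CPM in control and 58.7, 50.8 and 65.5 CPM in FAC. In each gene replicate 3 was the highest and replicate 2 the lowest of both groups. The log2 fold changes were 0.06 (SE 0.093), -0.06 (SE 0.0749) and 0.02 (SE 0.117), with edgeR adjusted p-values of 0.665, 0.582 and 0.91.

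The immunoproteasome's share of the summed TPM of the 6 catalytic genes was 6.88, 7.14 and 7.67% in control and 4.78, 5.73 and 4.08% in FAC. It was 6.72, 6.51 and 7.44% in Lip-1+FAC and 7.01, 7.24 and 6.85% in MT+FAC. The FAC libraries lay below all 9 others. Within pairs by TPM, whose ratios depend on the annotated lengths, Psmb9 was 0.941 to 1.08% of Psmb6 in control and 0.474 to 0.53% in FAC. Psmb8 was 3.44 to 4.42% of Psmb5 in control and 2.54 to 3.05% in FAC. Psmb10 was 96.2 to 117% of Psmb7 in control and 54.4 to 89.6% in FAC. With Lip-1+FAC the 3 ratios were 0.796 to 0.984%, 3.38 to 3.67% and 93.4 to 132% in the same order, and with MT+FAC 0.927 to 1.15%, 2.99 to 3.58% and 123 to 135%.

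Summed over a class, the immunoproteasome genes reached 52.1 to 68.7 CPM in control, 36.2 to 40.7 in FAC, 45.6 to 52.2 with Lip-1+FAC and 48.1 to 49.9 with MT+FAC. The 15 constitutive 20S genes summed to 2409.1 to 2637.8 CPM in control and 2221.2 to 2624.2 in FAC, and the 17 genes of the 19S cap to 4712.1 to 4830.2 and 4708.7 to 5038.6. The constitutive sums thus overlapped between control and FAC, and the immunoproteasome sums did not. In the pretreated groups the 20S genes summed to 2243.0 to 2506.3 CPM with Lip-1+FAC and 2273.5 to 2327.8 with MT+FAC, and the 19S genes to 4955.1 to 5149.7 and 4832.5 to 5078.2. These 19S sums lay above every control library and overlapped with FAC. The MT+FAC sums of the immunoproteasome genes and of the 20S genes lay below every control library. Those of Lip-1+FAC overlapped with control.

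**Figure D3:**
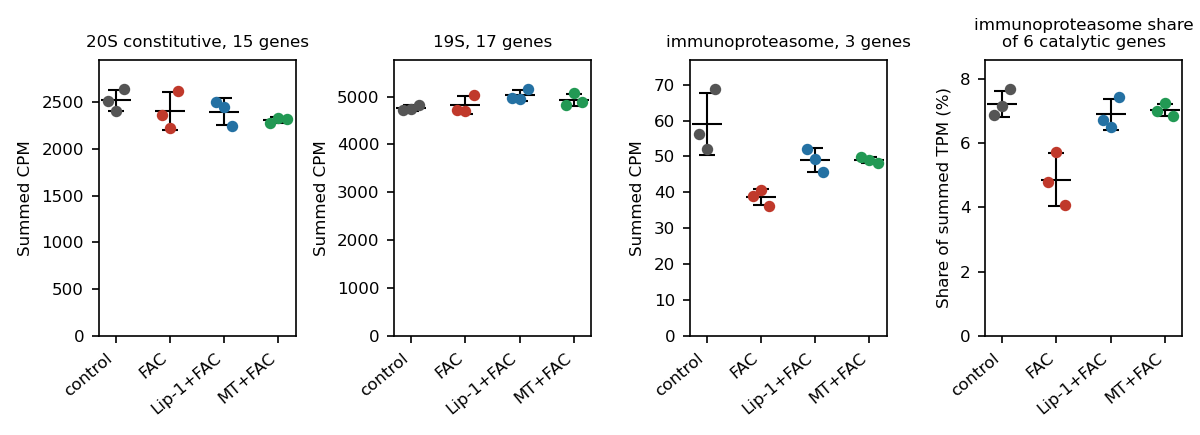
Summed CPM per library of the 15 constitutive 20S genes, the 17 genes of the 19S cap and the 3 immunoproteasome genes, and the immunoproteasome's share of the summed TPM of the 6 catalytic genes; dots are libraries, black bars the mean and SD of 3. The 3 FAC libraries lie lowest in both immunoproteasome panels (36.2 to 40.7 CPM and 4.08 to 5.73%).

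Markers of other cell types were read in the same libraries. Of 8 lymphocyte markers, none passed the filter on low counts, 6 had 0 counts in every library, Cd3e, Nkg7 and Cd8a among them, and the others had at most 6 counts. Of 8 macrophage markers 7 were tested, and their summed level was 224 to 256 CPM in control, 290 to 322 in FAC, 117 to 147.3 in Lip-1+FAC and 143.2 to 175 in MT+FAC. Cd68 alone made up 214 to 245 CPM of this sum in control and 279.5 to 311 CPM in FAC. Of the 7, Cd68 was higher (log2 fold change 0.39) and the Kupffer cell gene Clec4f lower (-1.08) in FAC than in control. Clec4f rested on only 22 to 35 counts per library in control and 10 to 36 in FAC. None of the macrophage markers tested was at 0 throughout. Of 6 endothelial markers 5 were tested and none was called in FAC against control, with sums of 34.5 to 36.0 CPM in control and 33.6 to 34.3 in FAC, and Stab2 was lower than in FAC in both pretreated groups (-0.57 and -0.46). Of 6 stellate cell markers 4 were tested. In FAC against control Reln was higher (1.11) and Dcn lower (-0.60), 3 of the 4 had negative values, and the sum, 9.27 to 14.3 CPM in control and 18.9 to 19.6 in FAC, moved with Reln. Of 5 cholangiocyte markers, Krt19, Sox9, Krt7 and Epcam were higher in FAC than in control, and the same 4 were lower in each pretreated group than in FAC, where Spp1 was higher (1.22 and 1.24). The median over the 5 was 1.32 in FAC against control, -2.46 in Lip-1+FAC against FAC and -1.88 in MT+FAC against FAC. Their sums were 58.6 to 68.9 CPM in control, 98.4 to 123.3 in FAC, 109.6 to 124.8 in Lip-1+FAC and 104.0 to 144.7 in MT+FAC. Krt7 had only 6 to 13 counts per library in control and 22 to 37 in FAC. Epcam had 6 to 17 and 27 to 76. The hepatocyte markers summed to 18038 to 18635 CPM in FAC, 14455 to 15587 in Lip-1+FAC and 14952 to 16361 in MT+FAC. The part of these cell types in the immunoproteasome values was not tested.

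In the alpha ring, 3 of the 8 genes were called in FAC against control, 2 lower and 1 higher (37.5%, against 36.6% of all genes). Psma1 (chr7:114264606-114276118), whose promoter is printed above, read 186, 185 and 179 CPM in control, 147.3, 142.4 and 159 CPM in FAC, 195, 200 and 194 CPM with Lip-1+FAC and 188, 194 and 185 CPM with MT+FAC. FAC stood alone below the other 3 groups, as for Psmb9 and Psmb10. Psma1 fell by 0.29 on the log2 scale with FAC (SE 0.0537, edgeR adjusted p = 0.000342). Psma4 fell by 0.17 (adjusted p = 0.033) and Psma5 rose by 0.19 (adjusted p = 0.0204). The call of Psma4 was lost under 6 of 11 other processing choices and without control 1, control 2, FAC 1, FAC 2 or MT+FAC 2 (values between -0.22 and -0.12 over all settings), and that of Psma5 without control 2 or FAC 3 (0.13 to 0.23). Psma5 has 2 processed pseudogenes of up to 98.6% identity, which had at most 79 and 61 counts, against 3518 or more for Psma5. Psma2, Psma3, Psma6, Psma7 and Psma8 were not called.

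Of the 4 non-catalytic beta genes, Psmb2 was called lower in FAC. It read 202, 198 and 211 CPM in control and 178, 169 and 194 CPM in FAC, groups that did not overlap. Its fitted difference was -0.18 on the log2 scale (SE 0.0658, edgeR adjusted p = 0.043). This call lay at the threshold: it was lost under 8 of 11 other processing choices and when any of 9 of the 12 libraries was left out, each control library among them, with values of -0.25 to -0.13.

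In the 19S cap, 1 of the 6 ATPase genes was called, lower, and 2 of the 8 lid genes, 1 in each direction (36.6% of all genes were called, 19.1% lower and 17.5% higher). All 6 ATPase genes had negative log2 fold changes in FAC, between -0.27 and -0.05, but only Psmc3 passed the test. Psmc3 (chr2:91054009-91066369) read 200, 197 and 195 CPM in control, 157, 159 and 176 in FAC, 196, 199 and 221 with Lip-1+FAC and 205, 216 and 199 with MT+FAC. FAC was again the lowest group without overlap (log2 fold change -0.27, SE 0.0612, edgeR adjusted p = 0.0023). The base scaffolds Psmd1 and Psmd2 and the ubiquitin receptor Psmd4 were not called, with values from 0.03 to 0.10. With GC and length offsets Psmd2 (0.18), Psmd4 (0.19) and the lid gene Psmd3 (0.16) were called higher.

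The lid gene Psmd11 (chr11:80428615-80473248), whose product helps to hold the cap on the core, read 289.6, 300.1 and 324 CPM in control and 394, 381 and 397 CPM in FAC. It read 431, 426 and 434 CPM with Lip-1+FAC and 394, 423 and 410.3 CPM with MT+FAC. Every library that had FAC lay above every control library, with or without a scavenger. Psmd11 rose by 0.36 on the log2 scale with FAC (SE 0.0531, edgeR adjusted p = 4.13e-05), the largest increase among the 39 genes. A transcribed copy of 97.9% identity over 1501 bases had at most 88 counts, against 6779 or more for Psmd11. Psmd6, another lid gene, fell by 0.17 (adjusted p = 0.0203); the call was lost under 3 of 11 other processing choices and without control 1, control 3 or FAC 1 (-0.19 to -0.13 over all settings). The deubiquitinase Psmd14 and the lid genes Psmd3, Psmd7, Psmd8, Psmd12 and Psmd13 were not called, nor were the assembly chaperones Psmd5 (0.13, adjusted p = 0.0641), Psmd9 (-0.20, adjusted p = 0.0518) and Psmd10 (-0.20, adjusted p = 0.0759). Psmd5 was called higher under 6 of 11 other processing choices (0.14 to 0.16) and without control 3, FAC 2 or MT+FAC 2 (0.15 to 0.17).

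**Figure D4:**
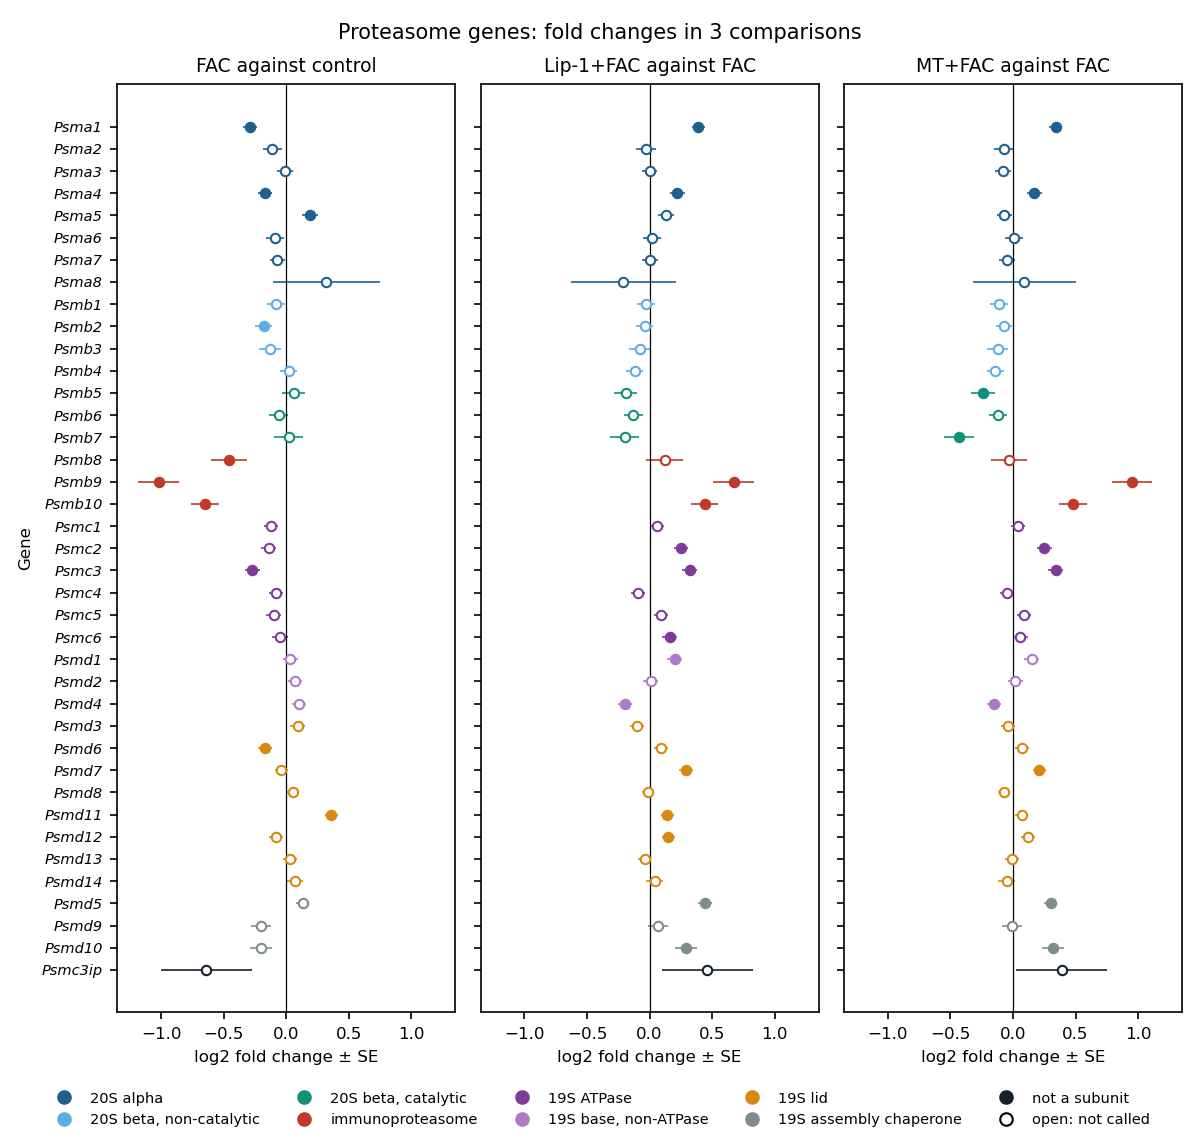
Log2 fold change (bars: SE) of each of the 39 genes, grouped and coloured by class, in FAC against control, Lip-1+FAC against FAC and MT+FAC against FAC; filled points passed an adjusted p under 0.05. In FAC against control the 3 immunoproteasome genes lie farthest to the left of the called genes (-1.02 to -0.46) and Psmd11 farthest to the right (0.36). The last 2 panels share the FAC libraries with the first.

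The split of calls in FAC against control moved with the libraries and the scaling. Among 37 genes, Psma8 and Psmc3ip left out for their low counts, FAC 3 was the highest FAC library for 32 and FAC 2 the lowest for 24, and control 3 was the highest control library for 26. Without FAC 3 there were 1 higher and 11 lower calls, and without control 1 there were 2 higher and 4 lower. With DESeq2's size factors in edgeR the split was 3 higher and 6 lower, and with offsets for GC content and length 6 higher and 6 lower. Psmb9, Psmb10, Psma1, Psmc3 and Psmd11 kept their calls in all settings in which they were tested and without any 1 library.

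The second comparison asked what liproxstatin-1 did in cells that then received FAC. The immunoproteasome genes Psmb9 and Psmb10 were higher with the scavenger, as were 7 of the 17 genes of the 19S cap and 2 of the 15 constitutive genes of the 20S core, a difference between classes that was not tested. The split turned over with offsets for GC content and length, which left 3 of the 17 genes of the cap and 6 of the 15 of the core higher. Of the 39 genes 13 were higher and 1 lower in Lip-1+FAC than in FAC (35.9%), where 39.9% of all genes were called (20.7% higher, 19.2% lower). The median log2 change was 0.06, against 0.001 over all genes; it was 0.107 without FAC 3, 0.134 with GC and length offsets and 0.037 with a minimum mean of 5 CPM. This comparison and the first share the FAC libraries, so that opposite signs in them are not independent.

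Psmb9 rose by 0.67 (SE 0.163, edgeR adjusted p = 0.00316), which is 59.3% above FAC, and Psmb10 by 0.44 (SE 0.109, adjusted p = 0.00349), 36.0% above FAC (0.73 with GC and length offsets). Psmb8 was not called (0.12, SE 0.145, adjusted p = 0.529). Summing the strand-specific columns retains reads that overlap a gene on the opposite strand, whichever gene they came from. With these sums Psmb8 was called at 0.27. Of its annotated exon bases, 14.7% overlap an antisense gene.

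Of the 15 constitutive 20S genes, Psma1 rose by 0.39 (SE 0.0537, edgeR adjusted p = 1.59e-05) and Psma4 by 0.22 (adjusted p = 0.00637), and no beta subunit was called. With GC and length offsets, however, Psmb2 (0.25) and Psmb5 (0.20) were called higher and Psmb7 (-0.36) lower, and with no filter on low counts Psmb5 (-0.19) was called lower. In the 17 genes of the 19S cap, 7 rose and 1 fell. The ATPase Psmc3 rose by 0.32 (adjusted p = 0.0004) and Psmc2 by 0.25 (adjusted p = 0.00242), but the call of Psmc2 was lost with GC and length offsets (0.10 to 0.32 over all settings). The lid gene Psmd7 (chr8:107580381-107588464), partner of the deubiquitinase Psmd14, read 199, 195 and 212 CPM in FAC, rising to 253, 249 and 241 CPM in Lip-1+FAC, beside 210, 197 and 218 CPM in control. The pretreated cells thus lay above both other groups, and Psmd7 rose by 0.29 over FAC (SE 0.0538, adjusted p = 0.000324). The scaffold Psmd1 rose by 0.20 (adjusted p = 0.0145), and its call was lost with GC and length offsets and without FAC 2 or Lip-1+FAC 3 (0.09 to 0.26 over all settings). Psmc6 (0.16, adjusted p = 0.0457), Psmd11 (0.14, adjusted p = 0.0437) and Psmd12 (0.15, adjusted p = 0.0359) passed narrowly. The call of Psmc6 was lost under 7 of 11 other choices and that of Psmd11 under 8, which for Psmd11 include a value of -0.02 with GC and length offsets; Psmd12 lost its call under 4.

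The ubiquitin receptor Psmd4 (chr3:95032694-95042614) fell. It read 189, 183 and 203 CPM in control, 202, 203 and 212 in FAC, 187, 183 and 168 with Lip-1+FAC and 185, 185 and 184 with MT+FAC. FAC lay above both pretreated groups without overlap and overlapped with control. The log2 fold change in Lip-1+FAC against FAC was -0.20 (SE 0.0562, edgeR adjusted p = 0.00942), and the call was lost without Lip-1+FAC 3 (-0.15).

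The assembly chaperone Psmd5 (chr2:34849734-34874968) had the largest change among the called genes outside the immunoproteasome. It read 237, 234 and 250 CPM in control, 256, 252 and 283 in FAC, 353, 352 and 368 with Lip-1+FAC and 327, 321 and 328 with MT+FAC. Control and FAC lay below both pretreated groups without overlap. Psmd5 rose by 0.44 over FAC (SE 0.0548, edgeR adjusted p = 5.55e-06). Psmd10, the chaperone also known as gankyrin, read 39.8, 34.7 and 42.3 CPM in control, 34.0, 32.0 and 35.4 in FAC, 42.8, 40.9 and 40.2 with Lip-1+FAC and 38.3, 41.6 and 46.2 with MT+FAC. It rose by 0.29 over FAC (SE 0.0869, adjusted p = 0.0125), to the level of control, and the call was lost without FAC 2 (0.25). Psmd9 was not called. The number of calls in this comparison dropped to 9 without FAC 2 (8 higher, 1 lower) and to 9 without Lip-1+FAC 3 (all higher), and with GC and length offsets it was 13 higher and 4 lower.

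The third comparison asked the same of Mito-TEMPO. Again Psmb9 and Psmb10 rose. Of the 3 constitutive catalytic genes, Psmb7 and Psmb5 fell and Psmb6 was not called, and with liproxstatin-1 none of the 3 was called (Psmb7 -0.20, Psmb5 -0.19, Psmb6 -0.13). Of the 39 genes 9 were higher and 3 lower (30.8%), where 40.9% of all genes were called (21.2% higher, 19.7% lower), with a median of 0.01 against -0.001 over all genes. Over the other choices and left-out libraries this median ran from -0.026 to 0.065. Upper-quartile scaling gave 10 higher and 1 lower. These values share the FAC libraries with both comparisons above.

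Psmb9 rose by 0.95 over FAC (SE 0.16, edgeR adjusted p = 0.000155), 92.9% above it, and Psmb10 by 0.48 (SE 0.109, adjusted p = 0.00187), 39.5% above it. Psmb8 was not called (-0.03, SE 0.145, adjusted p = 0.898), and with the strand-specific columns summed it was called at 0.25. Psma1 rose by 0.34 (SE 0.0536, adjusted p = 8.22e-05), Psmc3 by 0.34 (adjusted p = 0.000307), Psmd10 by 0.32 (adjusted p = 0.0075) and Psmd5 by 0.30 (adjusted p = 0.000297). Psmc2, Psmd7 and Psma4 rose by 0.25, 0.21 and 0.17, and Psmc2 again lost its call with GC and length offsets (0.13 to 0.31 over all settings). Psmd10 lost its call without MT+FAC 3 (0.25), and Psma4 lost its call without FAC 1, FAC 2 or any 1 of the MT+FAC libraries.

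Psmb7 (chr2:38588036-38644087), which carries the trypsin-like activity, read 40.1, 44.4 and 44.8 CPM in MT+FAC, all below the 50.8 to 65.5 CPM of FAC and the 51.3 to 63.3 CPM of control. Lip-1+FAC read 56.8, 54.0 and 41.4 CPM and spread over both. Psmb7 fell by 0.43 against FAC (SE 0.117, edgeR adjusted p = 0.00816). It overlaps Nek6 on the opposite strand over 11.8% of its exon bases, and with the strand-specific columns summed the fall was 0.22 and still called. Such sums can include reads of Nek6. Psmb5, which carries the chymotrypsin-like activity, read 125, 121 and 129 CPM in MT+FAC against 133 to 162 CPM in FAC (log2 fold change -0.24, SE 0.093, adjusted p = 0.0491). The Psmb5 call was lost under upper-quartile scaling, with the replicate block and without any 1 of 7 of the 12 libraries, among them FAC 3 (-0.17), and with GC and length offsets the value was 0.09. Psmb5 also has a processed pseudogene of 98.9% identity, which had at most 91 counts, against 2635 or more for Psmb5. Reads that match a gene and its copy equally could be lost from such counts, which was not tested. Psmb6, of caspase-like activity, read 276, 268 and 270 CPM and was not called (-0.12, adjusted p = 0.233). Psmd4 fell by 0.15 (adjusted p = 0.0353), a call lost under upper-quartile scaling, with no filter on low counts and without FAC 2 (-0.16), FAC 3 (-0.13) or any MT+FAC library (-0.17 to -0.15).

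A direct test between the pretreatments called none of the 39 genes with edgeR, where 1.34% of all genes were called (0.465% higher, 0.879% lower). At an unadjusted p under 0.05 there were 2, Psma5 and Psmd5, and DESeq2 called 1, Psma5. Psma5 read 192, 188 and 181 CPM with Lip-1+FAC and 153, 168 and 165 CPM with MT+FAC (log2 fold change -0.21, SE 0.0611, edgeR adjusted p = 0.106). The corresponding value of Psmd5 was -0.14 (SE 0.0546, adjusted p = 0.259). For Psmb9 the difference was 0.28 (SE 0.157, adjusted p = 0.482), and for Psmb7 it was -0.24 (SE 0.118, adjusted p = 0.413). The differences between the 2 scavengers in the comparisons with FAC were therefore not shown by a test of the difference itself. The libraries of the pretreated groups did not overlap for 5 members (12.8%), against 19.8% of all genes.

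**Figure D5:**
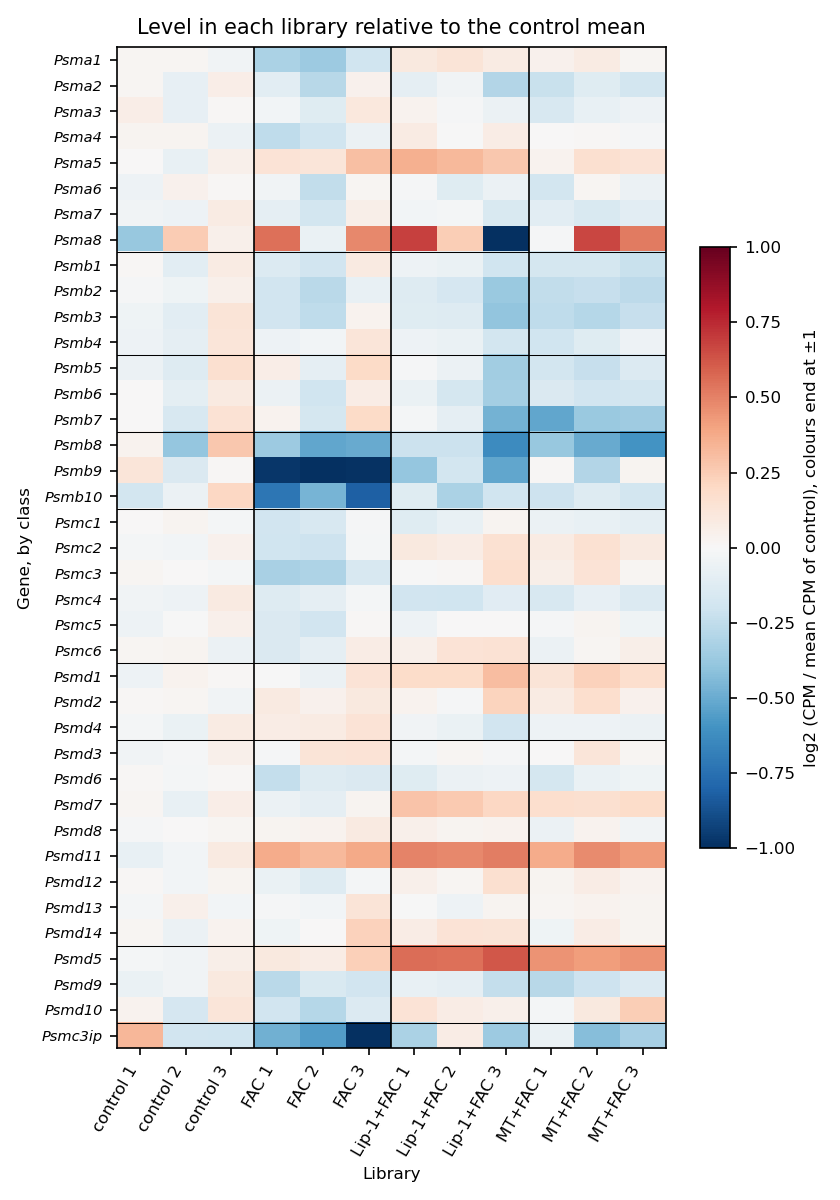
Level of each of the 39 genes in each of the 12 libraries as log2 of CPM over the control mean (blue lower, red higher, colours end at ±1); horizontal lines separate the classes. Each along its own row, Psmb9 and Psmb10 are darkest blue in FAC, Psmd11 is red in all 9 libraries that had FAC, and Psmd5 is reddest in the 6 pretreated libraries. The colours of Psma8 and Psmc3ip rest on low counts.

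The pretreated groups were also set against control. In Lip-1+FAC 5 genes were higher and 2 lower than in control (17.9%), where 30.2% of all genes were called (15.4% higher, 14.8% lower). In MT+FAC 4 were higher and 4 lower (20.5%), where 19.8% of all genes were called (9.71% higher, 10.1% lower). With GC and length offsets these became 10 higher and 0 lower, and 6 higher and 2 lower. Here FAC and scavenger changed together, and both comparisons share the control libraries. Psmd5 was 0.57 above control in Lip-1+FAC (SE 0.055, edgeR adjusted p = 5.64e-07) and 0.44 in MT+FAC (SE 0.0549, adjusted p = 3.2e-05). Psmd11 was 0.50 above control in Lip-1+FAC (SE 0.0532, adjusted p = 2.08e-06) and 0.43 in MT+FAC (SE 0.0531, adjusted p = 3.07e-05). Psmd7 and Psmd1 were also higher in both, by 0.25 and 0.23 in Lip-1+FAC and by 0.17 and 0.18 in MT+FAC, and Psma5 was higher in Lip-1+FAC by 0.32. In MT+FAC the call of Psmd1 was lost under 3 of 11 other choices and without any 1 of 9 of the 12 libraries, and that of Psmd7 under 2 of 11 and without any 1 of 5.

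The lower calls against control were mostly beta genes. Psmb2 read 186, 181 and 158 CPM with Lip-1+FAC and 172, 174 and 170 CPM with MT+FAC, below the 198 to 211 CPM of control, with log2 fold changes of -0.22 (edgeR adjusted p = 0.0175) and -0.25 (adjusted p = 0.0136). With GC and length offsets these were 0.00 and -0.05, and neither was called. In MT+FAC, Psmb8 (-0.49, groups overlapping), Psmb7 (-0.41) and Psmb3 (-0.25) were also lower. Psmb8 and Psmb7 each lost their call with the strand-specific columns summed and without any 1 of 4 libraries (weakest values -0.22 and -0.17). Psmb3 lost its call with another filter, with the replicate block, with GC and length offsets and without any 1 of 6 libraries (-0.30 to -0.14). In Lip-1+FAC the other lower gene was the ATPase Psmc4 (-0.17), whose call was lost with GC and length offsets, with no filter on low counts and without control 3, Lip-1+FAC 1, Lip-1+FAC 2 or MT+FAC 2. Psmb9 and Psmb10 were not called against control in either pretreated group, with values of -0.35 (SE 0.157, adjusted p = 0.1) and -0.21 (SE 0.108, adjusted p = 0.158) in Lip-1+FAC and -0.08 (SE 0.155, adjusted p = 0.773) and -0.17 (SE 0.108, adjusted p = 0.284) in MT+FAC. The MT+FAC count of 8 ranged from 3 to 9 when 1 library was left out, with 3 calls without control 1, control 3, MT+FAC 2 or MT+FAC 3 and 4 without MT+FAC 1.

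Of 17 genes of antigen presentation and interferon control, 7 were lower and 0 higher in FAC than in control (41.2% called, against 36.6% of all genes; 19.1% of all genes were lower and 17.5% higher). The other 10 were not called, and the median was -0.10. Tap1, the divergent neighbour of Psmb9, read 32.1, 32.4 and 32.8 CPM in control and 17.1, 19.5 and 16.9 CPM in FAC, and fell by 0.86 (SE 0.117, edgeR adjusted p = 1.83e-05). Of the exon bases of Psmb9, 5.8% overlap Tap1. Irf1, a transcription factor known to act on the Psmb9 and Tap1 promoters, and Tap2, the partner of Tap1, each fell by 0.50 (edgeR adjusted p = 0.00013 and 0.00355). Irf7, Stat2 and Irf9 were also called lower. Against FAC, 9 of the 17 were higher and 1 lower in Lip-1+FAC (20.7% and 19.2% of all genes), and 7 higher and 1 lower in MT+FAC (21.2% and 19.7% of all genes). Irf1 rose by 0.45 and 0.57 in these comparisons, which share the FAC libraries.

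Of 10 regulators and bound factors of the proteasome, 3 were lower and 1 higher in FAC than in control (19.1% of all genes were lower and 17.5% higher). The lower ones were Psme1 (-0.27, edgeR adjusted p = 0.00773) and Psme2 (-0.32, adjusted p = 0.000636), which form the interferon-induced PA28 activator cap, and Psmf1 (-0.34, adjusted p = 0.000949), an inhibitor of the core. The ubiquitin receptor Adrm1 rose by 0.23 (adjusted p = 0.0173). Psme1 read 97.9, 98.3 and 113.4 CPM in control, 83.1, 90.8 and 82.4 in FAC, 121.8, 116.4 and 104.5 with Lip-1+FAC and 109.6, 102.7 and 99.1 with MT+FAC, so that FAC was the lowest group without overlap. Among 5 chaperones of 20S assembly, Psmg1 (-0.32, adjusted p = 0.00867) and Psmg2 (-0.31, adjusted p = 0.0057) were lower in FAC and none was higher (19.1% of all genes were lower and 17.5% higher).

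Of 10 genes of the NRF1 route, 5 were higher and 1 lower in FAC than in control, where 17.5% of all genes were higher and 19.1% lower, with a median of 0.15. The largest increases were those of the repressor Bach1 (1.14, edgeR adjusted p = 1.09e-05) and the small Maf partners Mafk (0.94, adjusted p = 7.57e-07) and Mafg (0.84, adjusted p = 1.56e-06), which also serve NRF2. Nfe2l2, the gene of NRF2, fell by 0.29 (adjusted p = 0.00252). Nfe2l1 itself, named here after its values were seen, read 177, 192 and 168 CPM in control and 210, 214 and 209 CPM in FAC, a rise of 0.24 (adjusted p = 0.00471). Of 11 ubiquitin genes and shuttle factors, 4 were higher and none lower in FAC (17.5% of all genes were higher), with a median of 0.23. Sqstm1, which delivers ubiquitinated cargo to autophagy, rose by 0.90 (adjusted p = 1.32e-08), the polyubiquitin gene Ubb by 0.42, and the shuttle Rad23b by 0.24. Ubb and Rad23b were lower than in FAC with each scavenger, by log2 values of -0.28 and -0.23 for liproxstatin-1 and of -0.44 and -0.36 for Mito-TEMPO. Sqstm1 was higher still in Lip-1+FAC (0.39) and differed between the scavengers in the direct test, lower in MT+FAC by 0.37 (adjusted p = 0.00482).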

How the data were processed

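Amplified full-length cDNA (SMART-Seq v4, Nextera XT) was sequenced and gene counts were made with STAR on GRCm38, per the submitters' processing notes; the annotation was not given in the sources used here. The authors deposited raw counts per gene for each library, unstranded and for each strand. The protocol does not mark strand, so overlapping opposite genes cannot be separated. Unstranded counts of 13535 genes were analysed with edgeR 4.0.16 (filterByExpr, TMM, robust quasi-likelihood, 4 group means over 12 libraries), Benjamini-Hochberg adjusted, and called at an adjusted p under 0.05. CPM are TMM-scaled, and TPM use GENCODE M21 exon lengths. Alternatives covered scaling, filters, DESeq2 1.42.0, a replicate block, summed strand columns, thinning, offsets and omitted libraries. The code was tested on simulated data. Named in full were the catalytic and immunoproteasome genes and, per class, the called gene with the largest change. That change was taken in FAC against control, Lip-1+FAC against FAC and MT+FAC against FAC. Up to 4 called genes of each related list were also named. Members and lists were chosen with earlier results of these data known. Some genes of the related lists are counted but not reported by name here. Of all reads, 75.81 to 77.83% were assigned to genes in FAC and 78.02 to 79.75% in control. The share was 80.39 to 81.17% in Lip-1+FAC and 80.52 to 80.73% in MT+FAC. FAC thus lay below control, and both pretreated groups above it, without overlap. Reads that met no annotated feature were 2.92 to 3.14% in FAC and at most 2.56% in any other library. The part of these shares in the differences between groups was not tested. Replicate pairs differed beyond counting noise (chi-square per degree of freedom 8.54 to 22.0).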

Additional observations from a re-analysis of the deposited data

How the results depend on the processing

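Counts of called proteasome genes were recomputed under 11 other choices and with each of the 12 libraries left out. With a log2 change of 0.25 or more in size also required, they were 6 for FAC against control, 7 for Lip-1+FAC against FAC, 7 for MT+FAC against FAC, 3 for Lip-1+FAC against control and 5 for MT+FAC against control. DESeq2 gave 1 for MT+FAC against Lip-1+FAC, and summed strand columns gave 4 for MT+FAC against control. With 1 library left out, the counts ran from 6 to 12 (FAC against control), 9 to 16 (Lip-1+FAC against FAC), 8 to 13 (MT+FAC against FAC), 5 to 10 (Lip-1+FAC against control) and 3 to 9 (MT+FAC against control). Shares of all genes called under these other settings are not given, here or above. Shifts in the counts therefore cannot be read as particular to the proteasome genes. Among called genes, offsets for GC content and length turned the sign of Psmb5 in MT+FAC against FAC (0.09) and of Psmd11 in Lip-1+FAC against FAC (-0.02). Genes not called in the reported fit were called with these offsets at the opposite sign: Psmb5 (-0.19 to 0.20, though called at -0.19 with no filter on low counts) and Psmb2 (-0.04 to 0.25) in Lip-1+FAC against FAC, Psmb2 in MT+FAC against FAC (-0.07 to 0.20), and Psma7 (-0.06 to 0.18) and Psmc5 (-0.01 to 0.17) in Lip-1+FAC against control. Summed strand columns did so for Psmb8 in MT+FAC against FAC (-0.03 to 0.25). The cause was not tested. The other counts stayed within 1.5 times those reported. Whether replicate numbers pair the libraries was not settled. Correlations of deviations were -0.249 to 0.164 over 18 same-numbered pairs and -0.196 to 0.221 over 36 differently numbered pairs. With 3 libraries per group, these values cannot exclude pairing. Of 37 member genes, library 3 was the highest control for 26 and the highest FAC library for 32. In each pretreated group it was the highest for only 12. The replicate block gave 9 calls for FAC against control, 14 for Lip-1+FAC against FAC and 11 for MT+FAC against FAC. It gave 0 for MT+FAC against Lip-1+FAC, 7 for Lip-1+FAC against control and 7 for MT+FAC against control. Depth limits Psmb9, Psma8 and Psmc3ip.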
